A study of Mus musculus with 4 samples.

Results

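The chemokine ligand family of mouse dermis was examined in 4 single-cell RNA libraries of sorted back-skin cells. Its members were taken by name, as every gene whose symbol is Ccl, Cxcl, Cx3cl or Xcl followed by a number and at most 1 final letter. This rule gave 44 of the 27999 gene entries, with 38 distinct symbols, since 5 symbols stand on more than 1 entry. Of the 44 entries, 36 held at least 1 UMI (a unique molecular identifier, which counts 1 captured RNA molecule), 29 held at least 100 and 8 held none. Levels are CPM, the UMIs of a gene per 1000000 UMIs of the cells considered. The libraries are 3' end-counted, so a CPM needs no correction for transcript length.

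Chemokines are small secreted proteins that bind G protein-coupled receptors on white blood cells and steer their movement along gradients held on matrix and vessel walls. They are classed by the spacing of conserved cysteines (CC, CXC, CX3C and XC), and many ligands of a class lie side by side in gene clusters. In skin they set where macrophages, dendritic cells, T cells and neutrophils sit, during immune surveillance and after injury.

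All mice were on the C57BL/6J background and carried an α-SMACreERT2 driver, a tamoxifen-inducible Cre under the smooth muscle actin promoter, with a RosaYFP reporter in both version 2 libraries and a RosaTDTomato reporter in both version 3 libraries. Every mouse received 4-hydroxytamoxifen at postnatal days 3 and 4, which marks Acta2-expressing dermal sheath cells and what descends from them. The groups were 2 months and 18 months of age with version 2 of the 10x chemistry, and 2 months and 12 months with version 3, with 1 library each from 2 mice per sample. The labels do not say whether the mice of a sample were pooled. Dermal cells were sorted through 2 gates, reporter-positive or Cd26-positive, each further positive for Itga9 or Cd200. The gates set the proportions of cell types, so numbers of cells are not compared between ages. In this text, values for the 4 libraries always come in the order 2 months version 2, 18 months version 2, 2 months version 3 and 12 months version 3.

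The libraries held 1906, 2727, 7023 and 5474 cell barcodes with 17831300, 21083193, 77032628 and 55396394 UMIs, of which 12721, 46039, 179363 and 149557 were chemokine ligand UMIs. Filtering kept 1677, 2430, 5388 and 3964 cells at median depths of 6253, 6592.5, 11926 and 11793 UMIs. The version 3 libraries shared 84 barcodes, 11 of them among kept cells, and the version 2 libraries shared 7. Sex-linked expression went with the chemistry: Ddx3y stood at 52.7, 57.0, 0 and 0.0180 CPM and Xist at 0, 0.0950, 946 and 988 CPM. Chemistry, reporter allele and sex-linked expression cannot be told apart, so ages were compared within a chemistry.

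Cells were clustered without the chemokine ligands and named from marker genes, giving 17 clusters. The samples are labelled as hair follicle mesenchyme, and papilla, sheath, fibroblast, pericyte with vascular smooth muscle and arrector pili classes, together with the unnamed cluster below, made up 10277 of the 13459 kept cells. The largest of them were dermal papilla (539, 487, 1160 and 430 cells), dermal sheath (205, 325, 1433 and 1209 cells) and dermal fibroblast (196, 679, 409 and 678 cells). Immune and epithelial cells had also passed the sort: macrophages numbered 18, 69, 561 and 436, dendritic cells 85, 295, 114 and 315 and keratinocytes 259, 147, 302 and 215. Pericytes with vascular smooth muscle numbered 217, 249, 29 and 11, endothelial cells 3, 18, 74 and 24, arrector pili muscle cells 65, 17, 458 and 2 and cycling cells 46, 39, 60 and 62. A cluster led by Omd, Adamts18 and Clic5 had too few markers for a name and is called unnamed (41, 101, 765 and 572 cells). Finally, 40 cells with at least 4 of 6 lymphatic markers were set apart as lymphatic endothelium (3, 4, 23 and 10), a step added after Ccl21a was seen in them. A class level is quoted as such where the class had at least 20 cells, and smaller classes are named with their cell number. The 18 macrophages of the 2-month version 2 library fell under this limit.

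Most of the genes lie in clusters on the GRCm38.p6 assembly. Ccl2, Ccl7, Ccl11, Ccl12, Ccl8 and Ccl1 occupy chr11:82035571-82305690, and Ccl5, Ccl9, Ccl6, Ccl3 and Ccl4 lie further along at chr11:83525778-83664683. Cxcl5, Cxcl3, Cxcl15, Cxcl1 and Cxcl2 lie together at chr5:90759360-90905938, with Cxcl9 and Cxcl10 at chr5:92321347-92348889. Ccl22, Cx3cl1 and Ccl17 share chr8:94745590-94812036. The Ccl27a, Ccl21b, Ccl27b, Ccl19 and Ccl21a region at chr4:41769467-42773993 holds near-identical copies. Of the 44 entries, 7 stand on unplaced scaffolds, and reads that match several copies may have been split or dropped in the authors' counting. Levels of Ccl19, Ccl21a and Ccl27a are therefore uncertain.

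Most of the monocyte-attracting CC ligands were highest in macrophages, and Ccl2 was shared among classes. Ccl8, which binds Ccr8 in mice, was the most abundant of them. Its macrophage level was 3029, 12578, 14702 and 17308 CPM, the first from 18 cells. It was high in every library with at least 69 macrophages, where 89.9, 95.5 and 89.0% of the macrophages held a Ccl8 UMI and the class held 70.2, 86.4 and 95.1% of all Ccl8 UMIs. Of keratinocytes, which are not a known source, 14.97, 49.0 and 35.8% held a Ccl8 UMI, at median depths of 12991, 18843 and 19691 UMIs against 6580.0, 7577 and 5503 in macrophages. Ccl7, which attracts monocytes through Ccr2, stood at 175, 1839.8, 1159 and 1729 CPM in macrophages and 156, 419, 558 and 915 CPM in fibroblasts. Ccl2, the principal Ccr2 ligand, stood at 24.1, 791, 542 and 805 CPM in macrophages and 356, 227, 689 and 919 CPM in fibroblasts. The pericyte class held 810.4 CPM of Ccl2 in the 2-month version 3 library, above every other class there, from 29 cells. With the looser cell filter a mast cell class was set apart, and at 12 months it led with 6265 CPM of Ccl7 and 1179.8 CPM of Ccl2. Ccl12, another Ccr2 ligand, stood at 72.4, 545, 269.5 and 596 CPM in macrophages and at most at 45.2 CPM in any other class of the last 3 libraries.

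The next CC ligands were divided between macrophages and dendritic cells. Ccl6, which acts through Ccr1, stood at 199, 709, 2845 and 926 CPM in macrophages and 81.7, 33.5, 287 and 239 CPM in dendritic cells. Ccl9, a related Ccr1 ligand, stood at 211, 409.9, 1016 and 595 CPM and 395, 351, 288 and 262 CPM in the same classes. Ccl6 was higher in macrophages in all 3 libraries that held at least 20, and so was Ccl9. Ccl4, which attracts T cells and monocytes, stood at 96.5, 749, 597 and 649 CPM in macrophages and 231, 2104, 144 and 217 CPM in dendritic cells. Ccl3, its neighbour in the genome, stood at 30.2, 126, 82.9 and 185 CPM and 48.8, 473, 70.0 and 62.5 CPM. For Ccl4 and Ccl3 the dendritic class led in the version 2 libraries and the macrophage class in the version 3 libraries. Ccl5, a T cell and NK cell product that dendritic cells can make, stood at 13.8, 52.9, 2.92 and 22.1 CPM in dendritic cells, in 3, 25, 2 and 10 of them. Macrophages held more Ccl5 in the version 3 libraries, at 9.70 and 36.3 CPM, with 70 and 50.3% of its UMIs in kept cells.

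Dendritic cells were the source of Ccl17 and Ccl22, the Ccr4 ligands that attract T cells. Ccl17 stood at 135, 49.6, 65.6 and 107 CPM, and the class held 96.2, 96.0, 90.9 and 97.8% of all Ccl17 UMIs. Ccl22 stood at 76.4, 75.6, 21.9 and 96.1 CPM. Cxcl16, a membrane-bound ligand of Cxcr6, stood at 139, 319, 338 and 506 CPM, and 55.3, 70.5, 59.6 and 80.0% of dendritic cells held a UMI, against 0 and 0.655% of the 65 and 458 arrector pili cells of the 2-month libraries (0 of 65 allows up to 4.62%). Its level was lower in keratinocytes, at 74.6, 70.9, 108 and 98.2 CPM, and lower in macrophages, at 101, 70.4 and 206 CPM in the last 3 libraries.

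The class held both Langerhans-type cells, which carry the C-type lectin Cd207, and other dendritic cells. Cells with a Cd207 UMI numbered 13, 39, 32 and 105. In them Cxcl16 stood at 168, 721, 591 and 735 CPM, against 134, 255, 188 and 375 CPM in the dendritic cells without one. Ccl17 stood at 14.0, 136, 158 and 174 CPM, against 156, 35.9, 10.5 and 68.0 CPM. Cxcl16 was thus higher in the Cd207 cells of every library, and Ccl17 in the 3 libraries with more than 13 such cells. Ccl4 went the other way in every library, with 126, 971, 17.6 and 60.5 CPM in Cd207 cells and 250.4, 2284, 219 and 306 CPM in the rest. These differences within single libraries were not tested.

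Xcl1, a lymphocyte chemokine that attracts cross-presenting dendritic cells through Xcr1, had 0, 2, 74 and 3 UMIs in the deposited barcodes. In the dendritic class its 67 UMIs of the 2-month version 3 library and its 3 UMIs of the 12-month library were all in cells that also held a Cd3 UMI, the T cell receptor complex. There were 2, 0, 9 and 4 such cells. None of the Ccl5 UMIs of the class was in them.

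The eosinophil-attracting Ccr3 ligands came from different cells. Ccl11 (eotaxin-1) stood at 69.6, 135, 134 and 207 CPM in fibroblasts and 41.5, 136, 246 and 44.8 CPM in pericytes with vascular smooth muscle, the last value from 11 cells. Ccl24 (eotaxin-2) stood at 0, 97.2, 189 and 159 CPM in macrophages, where the 18 cells of the first library held no UMI, which allows up to 18.1 CPM (3 UMIs). Ccl26 had no UMI in any library.

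The Ccr7 ligands, which guide dendritic cells and T cells to lymph vessels and nodes, were also split. Ccl21a stood at 63486, 67310.0, 25541 and 43632 CPM in the lymphatic endothelial cells and at 5.02, 3.07, 42.6 and 43.9 CPM in fibroblasts. These 3, 4, 23 and 10 lymphatic cells held 2704, 2560, 5844 and 2546 Ccl21a UMIs. Of the lymphatic cells, 3, 4, 20 and 10 held a Ccl21a UMI. Lymphatic cells had been set apart by 6 other genes, none of them a chemokine. Before that step 3, 4, 22 and 10 of them were in the fibroblast cluster led by Sfrp4, C3 and Clec3b, and 1 was in a papilla cluster. Lymphatic cells with too few markers would have stayed in the fibroblast class, and their part in its Ccl21a was not tested. Ccl19 stood at 25.1, 46.8, 15.3 and 51.9 CPM in fibroblasts, higher than in most other classes but well under Ccl21a in lymphatic cells.

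Keratinocytes held the highest levels of the epithelial CC ligands. Ccl27a, the Ccr10 ligand of epidermis, stood at 48.2, 236, 172 and 175 CPM, and keratinocytes held 51.6, 56.4, 44.2 and 48.0% of its UMIs. Within the class the cluster led by Krt14, Krt15 and Krt5 held it at 49.3, 533, 444 and 357 CPM. That cluster also had Krt17, Krt16 and Krt6a among its leading genes. The cluster of inner root sheath keratins (Krt71, Krt25) held 10.9, 12.3, 7.53 and 7.51 CPM. The level in the cluster led by Flg and Krt77 (0, 39, 89 and 42 cells) is not reported here. Ccl20, the Ccr6 ligand, stood at 33.5, 58.0, 21.6 and 40.5 CPM, and the 10 cells with most of it held 96.7, 100, 88.2 and 95.3% of its keratinocyte UMIs. Its level therefore rested on few cells in each library, 17, 6, 19 and 16 with a UMI. Ccl25, best known as the thymic and intestinal Ccr9 ligand, was low and broad, with 12.0, 16.1, 16.4 and 13.5 CPM in dermal papilla.

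Cxcl1 and Cxcl2 are Cxcr2 ligands that attract neutrophils and are induced soon after injury. Cxcl1 was highest in pericytes with vascular smooth muscle in the 3 libraries with at least 20 of them, at 568, 1073, 5421 and 2674 CPM, the last 2 values from 29 and 11 cells. Endothelial cells held 998 and 744 CPM in the version 3 libraries. In the version 2 libraries the pericyte class held 66.8 and 64.3% of all Cxcl1 UMIs, and in the version 3 libraries 10.6 and 3.47%. Fibroblasts held 20.9, 11.3, 47.3 and 40.3% over the 4 libraries. Cxcl2 was highest in myeloid cells, at 698, 171, 2578 and 2447 CPM in dendritic cells and 483, 343, 1057 and 1704 CPM in macrophages. Cxcl2 in the pericyte class stood at 33.5, 111, 1697 and 418 CPM, second to dendritic cells in the 2-month version 3 library. The 2 genes were also found in the same cells: of version 3 macrophages with a Cxcl1 UMI after thinning to 2000 UMIs, 77.6 and 89.7% also held Cxcl2, against 34.7 and 33.7% of those without one. Cxcl10, an interferon-inducible ligand of Cxcr3, was spread over fibroblasts (26.5, 21.3, 258 and 166 CPM), keratinocytes (14.4, 29.6, 86.5 and 81.9 CPM), macrophages (0, 32.4, 135 and 136 CPM) and dendritic cells (9.55, 40.1, 40.8 and 58.3 CPM).

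All 3 of these genes passed the test between ages in a class below, as did Cxcl3, Cxcl9, Cxcl12, Cxcl13 and Cxcl14, among others. The sequences just upstream of the 3 are shown as examples. Each is the 250 bases before the transcript start in RefSeq's GRCm38.p6 annotation, 5′ to 3′ on the gene's strand, at chr5:90890995-90891244 (plus strand), chr5:90903649-90903898 (plus strand) and chr5:92348890-92349139 (minus strand). Capitals mark every match to the κB motif GGGRNNYYCC and, in Cxcl10, also the AP-1 motif TGANTCA. Here R is A or G, Y is C or T and N is any base.
Cxcl1: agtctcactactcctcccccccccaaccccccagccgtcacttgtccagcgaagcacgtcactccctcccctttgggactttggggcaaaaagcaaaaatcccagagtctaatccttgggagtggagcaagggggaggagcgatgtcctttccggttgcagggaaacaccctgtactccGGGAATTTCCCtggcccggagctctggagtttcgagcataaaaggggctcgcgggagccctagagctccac
Cxcl2: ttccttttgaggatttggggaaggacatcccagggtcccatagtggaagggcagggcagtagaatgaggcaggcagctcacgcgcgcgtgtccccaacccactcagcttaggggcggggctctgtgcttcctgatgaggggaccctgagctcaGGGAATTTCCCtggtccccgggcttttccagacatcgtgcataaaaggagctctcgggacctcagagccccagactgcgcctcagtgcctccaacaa
Cxcl10: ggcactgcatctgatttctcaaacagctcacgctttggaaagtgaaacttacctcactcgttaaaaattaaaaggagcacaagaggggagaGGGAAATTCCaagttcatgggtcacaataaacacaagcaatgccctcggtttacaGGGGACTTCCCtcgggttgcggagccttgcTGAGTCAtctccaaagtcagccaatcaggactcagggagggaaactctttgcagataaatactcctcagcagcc
Both strands were searched. The same 11 bases, GGGAATTTCCC, stood 71 to 61 bases upstream of the Cxcl1 start and 97 to 87 bases upstream of the Cxcl2 start. The Cxcl10 sequence held GGGAAATTCC at 159 to 150 bases, GGGGACTTCCC at 104 to 94 bases and the AP-1 letters TGAGTCA at 74 to 68 bases upstream. Overlapping κB matches on the 2 strands were merged into 1 stretch. Over the 32851 promoters of the RefSeq table, 7.25% held a κB match and 6.75% an AP-1 match. Among the 33 promoters of the 27 chemokine symbols in that table, 7 held a κB match (Ccl1, Ccl20, Ccl9, Cxcl1, Cxcl10, Cxcl2 and Cxcl3) and 4 an AP-1 match (Ccl27a, Ccl27b, Ccl9 and Cxcl10). The promoters of Cxcl9, Cxcl12, Cxcl13 and Cxcl14, which also passed the test between ages in a class, held no κB match. Ccl2, Ccl4, Ccl5, Ccl7 and Cxcl16 passed as well but are missing from that table, so their promoters were not searched. A match is a description of the letters, not evidence of binding.

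The homeostatic CXC ligands differed in their leading class. Cxcl12 was highest in fibroblasts in version 2 and in endothelial cells in version 3, and Cxcl13 was highest in fibroblasts at 2 months and in macrophages at 18 and 12 months. Cxcl12, the Cxcr4 ligand that retains stem and immune cells in their niches, stood at 583, 673, 295 and 456 CPM in fibroblasts and 172, 186, 186 and 134 CPM in pericytes with vascular smooth muscle. Dermal sheath cells held less, 27.4, 79.9, 45.8 and 88.0 CPM. Endothelial cells held 494 and 1140.1 CPM in the version 3 libraries, above fibroblasts in both. Cxcl14, an abundant skin chemokine, stood at 182, 514, 68.5 and 128 CPM in papilla, 87.6, 162, 78.5 and 128 CPM in sheath and 207, 191, 171 and 189 CPM in the unnamed cluster. Keratinocytes held 14.2, 361, 165 and 184 CPM of Cxcl14, above papilla and sheath in version 3. Cxcl13, the B cell attractant that binds Cxcr5, stood at 11.5, 0.959, 89.9 and 9.76 CPM in fibroblasts and 0, 11.4, 11.8 and 151 CPM in macrophages. Cx3cl1, the membrane-anchored ligand of Cx3cr1, stood at 25.1 and 42.9 CPM in version 3 endothelial cells.

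The remaining members were rare. Ccl28 had 6, 8, 21 and 9 UMIs over all deposited barcodes, and Ccl27b had 2, 8, 4 and 3. Cxcl15 had 0, 0, 20 and 29, Cxcl17 had 0, 0, 5 and 1 and Ccl1 had 0, 0, 0 and 1. Cxcl5 had 9, 144, 54 and 4 UMIs, and the 18-month library's fibroblast UMIs were in 6 cells. Cxcl9 had 18, 153, 200 and 107 UMIs. The 8 entries without a UMI were Ccl26, both entries each of Ccl21b and Ccl21c, and further copies of Ccl19, Ccl21a and Ccl27a, whose counts may have been lost to near-identical copies.

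**Figure D1:**
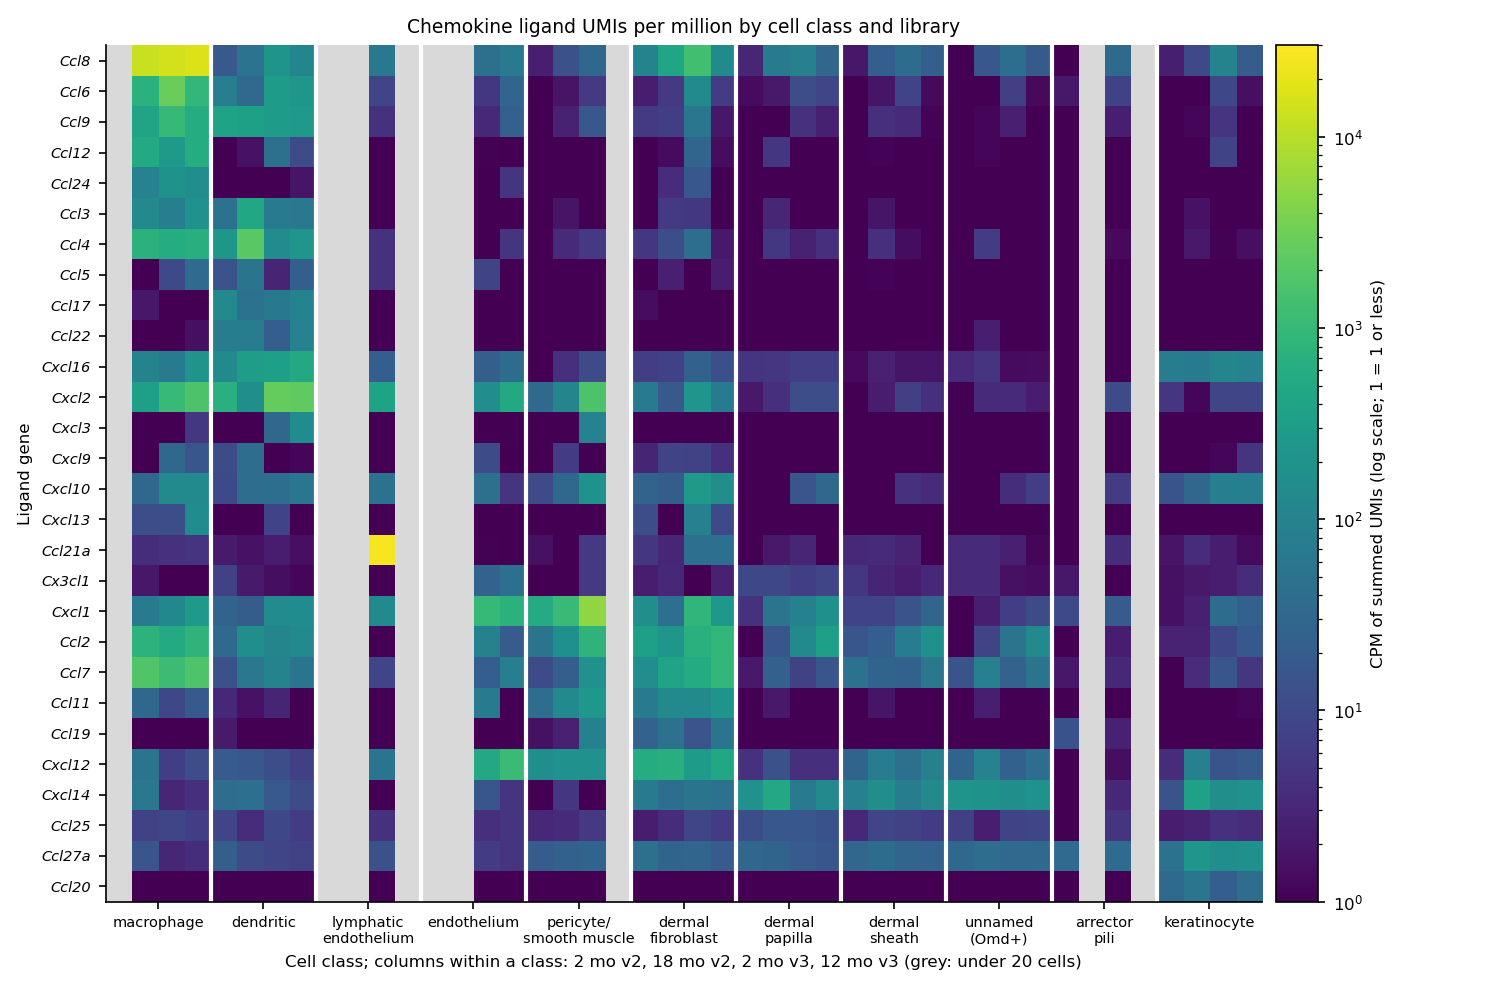
Heat map of the level of 28 chemokine ligands (rows; CPM of summed UMIs, log colour scale, brighter is higher) in 11 cell classes, with 1 column per library and grey where a class had under 20 cells. The brightest cells are Ccl8 in macrophages, up to 17308 CPM, and Ccl21a in lymphatic endothelium, 25541 CPM in the library with 23 cells, while Cxcl14 is spread over papilla, sheath, the unnamed cluster and keratinocytes.

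Within the mesenchymal classes the ligands were unevenly spread over clusters. Of the sheath clusters, the one led by Npr3, Stmn2 and Corin (cluster 5) held Ccl2 at 2.45, 52.9, 296 and 589 CPM, and the one led by Thbs4, Matn4 and Tnmd (cluster 11) held it at 30.8, 5.55, 7.77 and 38.2 CPM. Cxcl1 stood at 13.5, 19.7, 46.5 and 101 CPM in the Npr3 cluster and 1.40, 2.22, 3.50 and 4.20 CPM in the Tnmd cluster. Cxcl12 had the opposite arrangement, with 9.79, 27.0, 7.98 and 22.4 CPM and 47.7, 108, 58.1 and 111 CPM. Cxcl1 was higher in the Npr3 cluster and Cxcl12 in the Tnmd cluster in all 4 libraries, and Ccl2 was higher in the Npr3 cluster in all but the 2-month version 2 library. Of 27 immediate-early genes, which dissociation of tissue can switch on, the summed level was 5306, 11749, 13942 and 24742 CPM in the Npr3 cluster and 2159, 2977, 2449 and 7156 CPM in the Tnmd cluster. Their part in the Ccl2 and Cxcl1 difference was not tested.

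Of the papilla clusters, the one led by Sostdc1, Sfrp2 and Rspo3 held Cxcl14 at 452, 825, 118 and 195 CPM, and the one led by Ndnf, Wif1 and Notum at 71.5, 365, 56.3 and 104 CPM. The first was higher in all 4 libraries. Fibroblasts differed more. The cluster led by Col5a3, Mmp11 and Coch (cluster 7) held Cxcl12 at 711, 993, 438 and 704 CPM and the cluster led by Lum and Pi16 (cluster 8) at 376, 129, 220.0 and 197 CPM. Ccl19 was the reverse, at 6.15, 29.4, 11.3 and 3.08 CPM in the Coch cluster and 155, 79.0, 72.0 and 107 CPM in the Pi16 cluster, as was Ccl11, at 42.0, 86.1, 19.7 and 43.6 and 99.6, 166, 249.98 and 371 CPM. Cxcl12 was higher in the Coch cluster in every library, and Ccl19 and Ccl11 in the Pi16 cluster in every library.

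The third fibroblast cluster, led by Sfrp4, C3 and Clec3b (cluster 10), had Cxcl1 at 703, 338, 2253 and 2169 CPM, against 47.2, 21.9, 11.7 and 65.0 CPM in the Coch cluster and 55.3, 40.8, 112 and 334 CPM in the Pi16 cluster. Its summed macrophage markers stood at 4372 CPM over all libraries, against 52.2 and 233 CPM in the Coch and Pi16 clusters. In the whole fibroblast class these markers stood at 80.4, 212, 2232 and 157 CPM, highest in the 2-month version 3 library. The cluster's own marker level in each library is not reported here. Its share of the fibroblast class varied between libraries, at 37 of 196, 39 of 679, 182 of 409 and 32 of 678 cells. It was therefore most frequent in the 2-month version 3 library, which bears on the fibroblast ages below. None of these differences between clusters was tested.

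**Figure D2:**
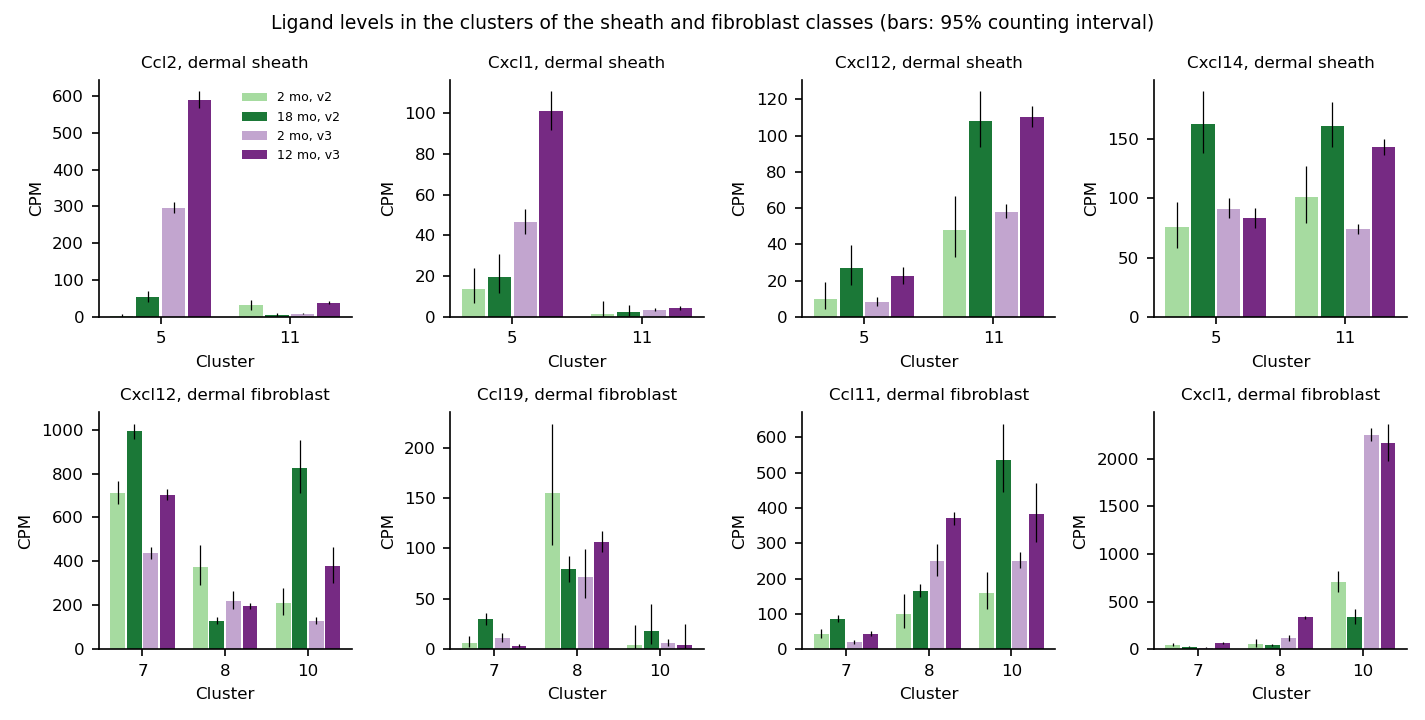
Bars give the level (CPM, from 0) of Ccl2, Cxcl1, Cxcl12 and Cxcl14 in sheath clusters 5 and 11 and of Cxcl12, Ccl19, Ccl11 and Cxcl1 in fibroblast clusters 7, 8 and 10, 1 bar per library with its 95% counting interval. Cxcl12 is higher in clusters 11 and 7, Ccl19 in cluster 8 and Cxcl1 in cluster 10, where it reaches 2253 CPM.

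Macrophage marker UMIs were also counted outside macrophages, so each level was set beside the level those UMIs would bring at the macrophage ratio of ligand to markers. Whether they came from free RNA, doublets or the cells themselves was not tested. For Ccl8 this gave 201, 214, 103 and 113% of the sheath level and 93.8, 281, 71.4 and 114% of the keratinocyte level, which puts the version 3 levels near the size that the markers would bring. In version 3 papilla the share was 103 and 69.9% for Ccl6 and 96.5 and 101% for Ccl4. For Ccl8 in fibroblasts it was 23.0, 41.5, 83.7 and 68.4%. The first value of each set rests on 18 macrophages.

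Other ligands stood far above that level. The share for Ccl2 was 18.3, 24.1, 1.74 and 1.54% in papilla and 0.20, 13.2, 1.87 and 0.643% in sheath. For Cxcl1 in papilla it was 0.704, 0.669, 0.555 and 0.934%, and for Cxcl10 in version 3 papilla 3.66 and 2.76%. Ccl7 divided by class: the markers would bring 22.1, 37.1, 66.8 and 74.8% of its papilla level but 0.852, 6.41, 15.4 and 1.05% of its fibroblast level. Ccl7 in papilla is therefore given below with its macrophage markers.

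**Figure D3:**
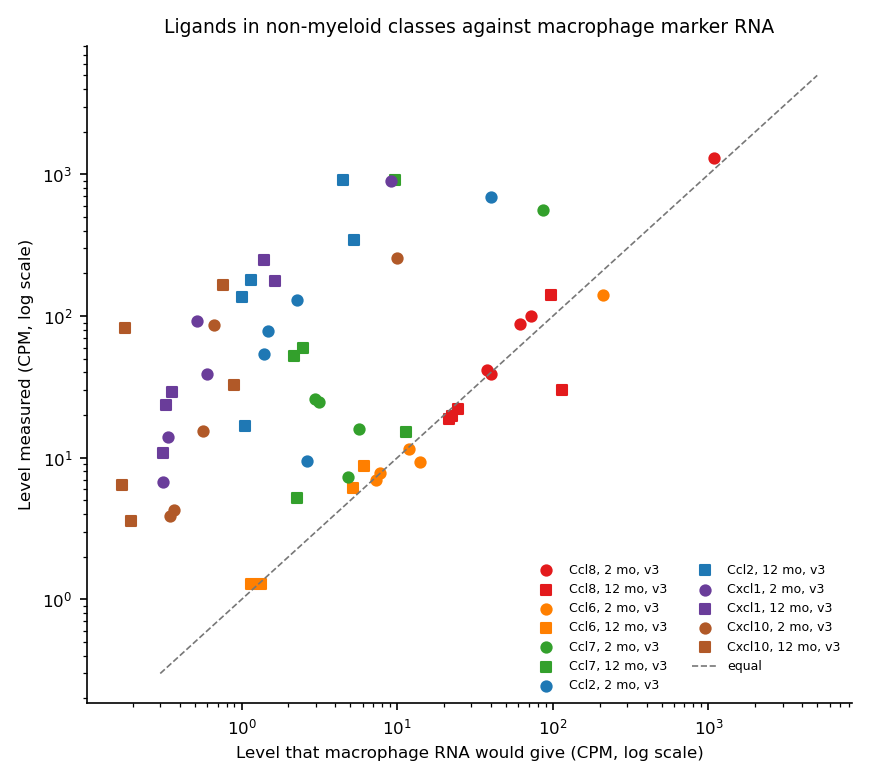
Measured level of Ccl8, Ccl6, Ccl7, Ccl2, Cxcl1 and Cxcl10 (CPM, log axis) against the level that macrophage marker RNA in the same cells would give (CPM, log axis), 1 point per class with at least 10 UMIs in each version 3 library, for papilla, sheath, fibroblast, the unnamed cluster and keratinocytes. Ccl8 and Ccl6 lie near the dashed line of equality, and Ccl2, Cxcl1 and Cxcl10 mostly lie above it.

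Ccl2 and Ccl7, neighbours on chromosome 11, were often found in the same cells of fibroblasts and macrophages after every cell had been thinned to 2000 UMIs. Among fibroblasts with a Ccl2 UMI, 61.6, 72.2 and 71.6% of the last 3 libraries' cells also held Ccl7, against 18.5, 11.1 and 21.9% of the fibroblasts without one. In macrophages the shares were 85.7, 82.5 and 78.8%, against 44.1, 44.7 and 42.8%. In version 3 papilla they were 2.13 and 1.25%, against 1.26 and 3.80%, so Ccl2 papilla cells showed no such excess. These are descriptions of cells within single libraries.

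Ages were first compared within a chemistry, as the ratio of the older library's CPM to the 2-month library's, with a 95% interval that covers counting error only. With 1 library per age and chemistry these ratios have no replicate check. Members with at least 10 UMIs in both libraries together were counted as higher or lower from 2-fold, beside the same count over all genes. A gene at 0 in a library was counted at its bound, with 3 UMIs there.

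In version 2, 18 months against 2 months, papilla had 9 of 14 such members higher and 0 lower, where 4.64% of all genes were higher and 3.81% lower. Sheath had 5 of 12 higher and 0 lower (4.17% and 4.38% of genes), and pericytes with vascular smooth muscle 6 of 9 higher and 0 lower (4.23% and 6.76%). Fibroblasts had 7 of 24 higher and 3 lower (5.69% and 6.61%), and dendritic cells 9 of 20 higher and 5 lower (4.23% and 16.3%). Keratinocytes had 7 of 14 higher and 1 lower, but there 29.7% of all genes were higher and 4.11% lower. The median log2 ratio of the members was 1.55 in papilla, 0.69 in sheath and 0.43 in fibroblasts, with all genes at 0.015, -0.02 and -0.06.

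In version 3, 12 months against 2 months, the counts were more even. Papilla had 3 of 17 members higher and 2 lower (3.39% and 6.16% of all genes), sheath 4 of 18 higher and 3 lower (3.08% and 3.6%), and fibroblasts 3 of 24 higher and 10 lower (4.4% and 9.02%). Dendritic cells had 3 of 22 higher and 3 lower (2.9% and 18.3%), and keratinocytes 1 of 20 higher and 6 lower (4.44% and 5.97%). Macrophages, which were numerous enough only in this chemistry, had 7 of 23 higher and 1 lower (3.94% and 5.9%). The unnamed cluster had 2 of 17 higher and 4 lower (3.27% and 3.48%), and cycling cells 6 of 17 higher and 5 lower (3.97% and 5.92%). The median log2 ratio of the members was -0.02 in papilla, -0.21 in sheath and -0.77 in fibroblasts, with all genes at -0.10, -0.04 and -0.06. The share of members past 2-fold in either direction was above that of genes in most classes. Past 2-fold, papilla and sheath had more members higher than lower in both chemistries, in version 3 by 3 against 2 and 4 against 3. In version 3, 8 of 17 papilla and 7 of 18 sheath members had a log2 ratio above 0. In fibroblasts and keratinocytes the lean past 2-fold turned, and in dendritic cells it was higher in version 2 and even in version 3. The other classes were compared in 1 chemistry.

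Of the 9 papilla members that were higher at 18 months, Ccl2, Ccl7, Ccl8, Ccl12 and Cxcl2 were highest in macrophages in the 18-month library. Ccl4 was highest there in dendritic cells, Cxcl1 in pericytes with vascular smooth muscle, Cxcl12 in fibroblasts and Cxcl14 in papilla. Ccl8 stood at 2.99, 70.9, 87.6 and 30.1 CPM in papilla, where the macrophage markers would bring 255, 85.3, 70.1 and 378% of the level. Pericytes with vascular smooth muscle, compared only in version 2, had ratios of 3.30 (2.49 to 4.41) for Ccl2, 3.29 (2.39 to 4.59) for Ccl11 and 1.89 (1.72 to 2.07) for Cxcl1.

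In macrophages, compared only in version 3, Ccl8 had a ratio of 1.18 (1.16 to 1.19) and Ccl6 was the 1 member lower by 2-fold, at 0.325 (0.312 to 0.340). The ratio was 2.21 (2.05 to 2.39) for Ccl12, 2.23 (1.94 to 2.56) for Ccl3, 2.03 (1.81 to 2.28) for Cxcl1 and 2.92 (2.54 to 3.38) for Cxcl16. Cxcl13 rested on few cells, with 51 and 399 UMIs in 21 and 54 macrophages, of which the 10 with most held 78.4 and 65.7%. Ccl5 and Cxcl3, each with under 100 UMIs per library, were the other 2 members higher by 2-fold. Macrophages were left out of the test below, since the 2-month version 2 library held 18.

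Of 81 pairs of member and class with at least 10 UMIs in each chemistry, 28 had a ratio above 1 in both chemistries, 15 a ratio below 1 in both and 38 opposite directions. Of the 55598 pairs of any gene and class counted the same way, 25.1% were above 1 in both and 34% below 1 in both. A 2-fold difference in the same direction in both was found for 3 member pairs higher, Ccl2 and Ccl7 in papilla and Ccl5 in dendritic cells, and for 3 lower, Cxcl1, Cxcl2 and Cxcl13 in fibroblasts. Over all pairs of gene and class 0.851% were 2-fold higher in both and 1.87% lower.

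**Figure D4:**
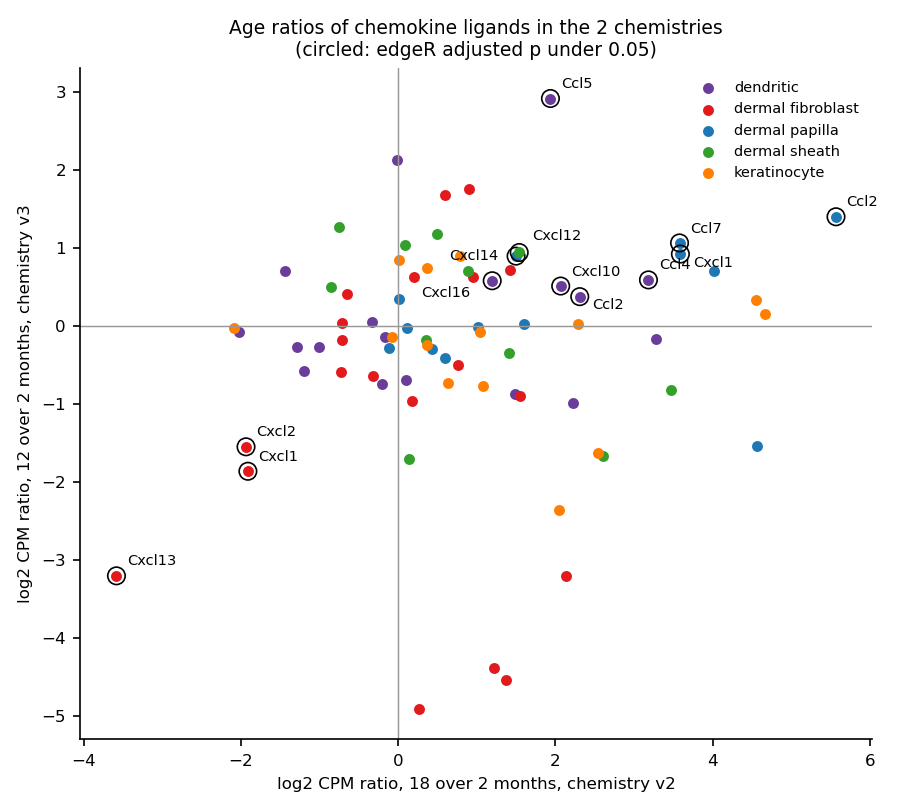
Log2 ratio of older to 2-month CPM at 12 months in version 3 (vertical axis) against 18 months in version 2 (horizontal axis), 1 point per member and class, with a black ring where edgeR's adjusted p was under 0.05. Papilla Ccl2 and Ccl7 and dendritic Ccl5 lie in the upper right and fibroblast Cxcl1, Cxcl2 and Cxcl13 in the lower left.

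Both older libraries were then tested against both 2-month libraries with edgeR's quasi-likelihood test with Benjamini-Hochberg adjustment, with the chemistry as a covariate and 1 residual degree of freedom. Its p-values measure only the spread between these 4 libraries. The submitters' design text counts 12 months with the young cohort. With that grouping 4 calls were made in place of the 16 below. Of these, 1 was in dendritic cells, 3 in keratinocytes and 0 in papilla, sheath and fibroblasts. In papilla 2.1% of all genes passed, in dendritic cells 4.27%, in fibroblasts 0.913%, in sheath 0.36% and in keratinocytes 0%. Over the 5 classes 88 tests of 28 members gave 16 calls, 13 higher and 3 lower. Papilla had 5 of 14 members higher, dendritic cells 7 of 21 higher, sheath 1 of 16 higher and fibroblasts 3 of 23 lower. The median log2 fold of the members tested was 0.66 in papilla, 0.30 in dendritic cells, 0.12 in sheath and -0.45 in fibroblasts, where the median over all genes was close to 0.

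In papilla, the signalling centre of the hair follicle, the 5 members were Ccl2, Ccl7, Cxcl1, Cxcl10 and Cxcl14. Ccl2 stood at 0.332, 15.8, 130.3 and 344 CPM, the first from 1 UMI, in 0.186, 4.93, 17.7 and 30.9% of cells. After thinning the shares were 0, 2.26, 8.34 and 19.0%. Of arrector pili cells in the libraries with at least 20 of them, 0 and 2.18% held a Ccl2 UMI at 2 months, at median depths of 7622 and 11609.5 UMIs against 5022 and 8177 in papilla. Each older library was above its own 2-month library, and the 18-month library was below the 2-month version 3 library. Its ratios were 47.5 (8.12 to 1915) for version 2 and 2.64 (2.46 to 2.84) for version 3, and the log2 fold in edgeR's quasi-likelihood test with Benjamini-Hochberg adjustment was 1.81 ± 0.31 (adjusted p = 0.0037). Cxcl1 stood at 4.32, 52.1, 92.6 and 176 CPM, again with each older library above its own 2-month library, and its ratios were 12.0 (6.84 to 23.1) and 1.90 (1.72 to 2.09). Its log2 fold in edgeR was 1.68 ± 0.33 (Benjamini-Hochberg adjusted p = 0.011). This call was lost in DESeq2 (adjusted p = 1.0) and in edgeR with the looser cell filter (adjusted p = 0.12).

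Cxcl14 in papilla stood at 182, 514, 68.5 and 128 CPM, with both version 2 libraries above both version 3 libraries. Within each chemistry the older library was higher, by ratios of 2.83 (2.56 to 3.13) and 1.86 (1.66 to 2.08), and the edgeR log2 fold was 1.23 ± 0.17 (adjusted p = 0.00096). The rise was present in both papilla clusters within both chemistries, as the cluster values above show. Ccl7 stood at 1.99, 23.9, 7.26 and 15.2 CPM, with ratios of 12.0 (5.23 to 33.7) and 2.09 (1.48 to 2.94) and an edgeR log2 fold of 1.84 ± 0.37 (adjusted p = 0.014). Without the cells holding a myeloid UMI, which leaves out 5241 of those 10277 mesenchymal, mural, muscle and unnamed cells, this call was lost, at a log2 fold of 1.33 ± 0.44 (adjusted p = 0.19), while Ccl2, Cxcl1, Cxcl10 and Cxcl14 still passed. Cxcl10 stood at 0.332, 1.01, 15.4 and 32.4 CPM, low in both version 2 libraries, with a version 3 ratio of 2.1 (1.66 to 2.64) and an edgeR log2 fold of 1.17 ± 0.28 (adjusted p = 0.039). That call was lost in DESeq2 (adjusted p = 1.0) and in edgeR with the looser cell filter and with a plain neighbour graph, the last chosen after seeing the data (adjusted p = 0.12 and 0.13). The Ccl7 call was lost with the looser filter too (edgeR adjusted p = 0.14).

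In the same cells the summed immediate-early level was 1439, 6122, 14597 and 25759.7 CPM and the summed macrophage markers stood at 26.6, 69.9, 126 and 186 CPM. Both were higher in the older library of each chemistry, and their part in the papilla results was not tested. Papilla Ccl2 and Cxcl10 each reversed direction when the 12-month library was left out and the chemistry could no longer be fitted, to log2 folds of -2.05 and -3.03.

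In dermal sheath, the contractile cup around the follicle, Cxcl12 alone passed. It stood at 27.4, 79.9, 45.8 and 88.0 CPM, with ratios of 2.91 (2.08 to 4.15) and 1.92 (1.77 to 2.09) and an edgeR log2 fold of 1.17 ± 0.16 (adjusted p = 0.048). Both older libraries were above both 2-month libraries. Within both sheath clusters the older library of each chemistry held more Cxcl12. With DESeq2-type size factors in edgeR the adjusted p was 0.090, and with the plain neighbour graph it was 0.48. Sheath Cxcl14 stood at 87.6, 162, 78.5 and 128 CPM and Ccl2 at 15.7, 22.0, 78.8 and 179 CPM, with older above young in each chemistry, and neither passed (adjusted p = 0.055 and 0.070 in edgeR's quasi-likelihood test). The summed immediate-early level of sheath was 3839.5, 6034, 5283 and 11649.7 CPM, and its part was not tested.

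In fibroblasts 3 members fell: Cxcl13, Cxcl1 and Cxcl2. Cxcl13 stood at 11.5, 0.959, 89.9 and 9.76 CPM, with ratios of 0.0836 (0.0239 to 0.239) and 0.109 (0.0847 to 0.138) and an edgeR log2 fold of -3.21 ± 0.23 (adjusted p = 0.0050). These levels came from 16, 5, 441 and 82 UMIs. The version 2 ratio thus rested on few cells, since 5 and 7 kept cells of any class held a Cxcl13 UMI there. Cxcl1 stood at 160.0, 42.6, 899 and 247 CPM, with ratios of 0.266 (0.220 to 0.322) and 0.275 (0.261 to 0.290) and an edgeR log2 fold of -1.82 ± 0.14 (adjusted p = 0.0075). Cxcl2 stood at 68.9, 18.0, 217 and 74.3 CPM, with ratios of 0.262 (0.195 to 0.352) and 0.342 (0.309 to 0.378) and an edgeR log2 fold of -1.65 ± 0.17 (adjusted p = 0.016). Each was lower in the older library of both chemistries. Without cells holding a myeloid UMI the Cxcl13 call was lost, at -1.64 ± 0.37 (edgeR adjusted p = 0.077), and so was that of Cxcl2.

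In version 2, Cxcl1 was lower in the older library within each fibroblast cluster, as the cluster values above show. In version 3, Cxcl1 was higher in the older library within the Coch and Pi16 clusters. The edgeR falls of Cxcl1 and Cxcl2 were lost without the Sfrp4 and C3 cluster, which was rarer in the older library of each chemistry. Without that cluster, an alternative chosen after seeing the data, the edgeR log2 fold of Cxcl1 was 1.29 ± 0.65 (adjusted p = 0.42) and that of Cxcl2 was 3.06 ± 0.37 (adjusted p = 0.0039). Cxcl13 remained lower, at -1.72 ± 0.30 (adjusted p = 0.016). Of 19 members tested there, 7 rose and 1 fell, and 286 of 11149 genes rose and 90 fell. Ccl7 stood at 103, 205, 70.0 and 169.8 CPM in the Coch cluster and 205, 618, 746 and 1692 CPM in the Pi16 cluster, and it rose with a log2 fold of 2.03 ± 0.19 (adjusted p = 0.0021). Ccl11 rose too, at 1.58 ± 0.20 (adjusted p = 0.0040), as did Ccl8, Ccl19, Cxcl2, Cxcl10 and Cxcl16. In the whole fibroblast class Ccl7 and Ccl11 had log2 folds of 1.12 ± 0.20 and 0.84 ± 0.16 and did not pass (edgeR adjusted p = 0.069 and 0.080). The mix of Coch and Pi16 cells also differed between libraries, at 133 and 26, 389 and 251, 180 and 47, and 316 and 330 cells, and its part in these values was not tested. The summed immediate-early level was 4615, 7833, 5099.8 and 12396 CPM in the Coch cluster and 11482, 13551, 14293 and 17649 CPM in the Pi16 cluster, higher in the older library of each chemistry, and its part was not tested. For Ccl8 in the whole fibroblast class the macrophage markers would bring 23.0, 41.5, 83.7 and 68.4% of its level, and the summed markers of the Coch and Pi16 clusters stood at 52.2 and 233 CPM over all libraries.

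In dendritic cells 7 members rose. The summed immediate-early level of the class was 9267, 14080, 10453 and 10912 CPM, higher in the older library of each chemistry, and its part was not tested. Ccl5, at 13.8, 52.9, 2.92 and 22.1 CPM, had ratios of 3.83 (2.16 to 7.39) and 7.56 (2.83 to 28.5) and an edgeR log2 fold of 2.59 ± 0.35 (adjusted p = 0.0040). Cxcl16, at 139, 319, 338 and 506 CPM, had ratios of 2.29 (1.90 to 2.78) and 1.5 (1.35 to 1.66) and an edgeR log2 fold of 1.19 ± 0.21 (adjusted p = 0.011). Both were higher in the older library of each chemistry. The Cxcl16 difference was also seen among Cd207 cells and among the rest, as given above. Cxcl3, a Cxcr2 ligand at 0, 0, 31.4 and 149 CPM, had no UMI in the version 2 libraries, which allows up to 3.18 and 1.24 CPM, and a version 3 ratio of 4.75 (3.47 to 6.65), so its call (2.51 ± 0.33, edgeR adjusted p = 0.0041) rests on version 3.

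Ccl4 in dendritic cells, at 231, 2104, 144 and 217 CPM, was high in the 18-month library and lay between 144 and 231 CPM in the other 3. Its ratios were 9.09 (7.94 to 10.5) and 1.51 (1.29 to 1.77), and its edgeR log2 fold was 2.23 ± 0.47 (adjusted p = 0.025). Cxcl9, an interferon-induced Cxcr3 ligand, stood at 10.6, 40.1, 0 and 1.21 CPM in 1, 7, 0 and 3 cells, with a log2 fold of 2.35 ± 0.48 (edgeR adjusted p = 0.021). Ccl2 stood at 34.0, 169, 107 and 139 CPM with a log2 fold of 1.54 ± 0.37 (edgeR adjusted p = 0.041), and Cxcl10 at 9.55, 40.1, 40.8 and 58.3 CPM with 1.33 ± 0.34 (edgeR adjusted p = 0.048). Other fits with all 4 libraries, the chemistry and 12 months as older were also run. In them the calls for Ccl4 and Ccl2 held in 2 of 7, Cxcl9 in 2 of 6 and Cxcl10 in 1 of 6. Those for Cxcl16 held in 4 of 7, Ccl5 in 5 of 6 and Cxcl3 in 4 of 6. With 12 months counted as young, 1 of 23 dendritic members tested passed. DESeq2 gave no adjusted p for Cxcl9, Cxcl10, Ccl5 and Cxcl3. With the plain neighbour graph, chosen after seeing the data, none of the 7 passed, with edgeR adjusted p = 0.082 for Ccl5 and Cxcl3 and 0.11 for Cxcl16. Without the dendritic cells that held a Cd3 UMI, 2 of the 7 calls passed, Ccl5 (2.55 ± 0.34, edgeR adjusted p = 0.035) and Cxcl3 (2.46 ± 0.32, edgeR adjusted p = 0.039), and 109 of 9403 genes passed in place of 404.

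In keratinocytes no member passed edgeR's quasi-likelihood test with Benjamini-Hochberg adjustment: 0 of 14 did so, and 0 of 14 had an unadjusted p under 0.05, where 617 of all genes tested had one. DESeq2 called 18 genes in keratinocytes and none of them was a member. Ccl27a was higher at 18 months, with a ratio of 4.89 (4.25 to 5.63), but stood at a ratio of 1.02 (0.935 to 1.11) in version 3. The mix of keratinocytes differed between the version 2 libraries. At 2 and 18 months the Krt14 cluster had 242 and 71 cells, the Krt71 cluster 17 and 37 and the Flg cluster 0 and 39. Its part in the ratio was not tested.

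Ccl5 in fibroblasts was higher in the older library of both chemistries without passing the test. It had 0 and 13 UMIs in version 2 and 1 and 19 UMIs in version 3, so it was at least 1.16-fold higher at 18 months and had a ratio of 11.1 (1.76 to 461) at 12 months. Its edgeR log2 fold was 3.76 ± 0.99 (adjusted p = 0.18).

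**Figure D5:**
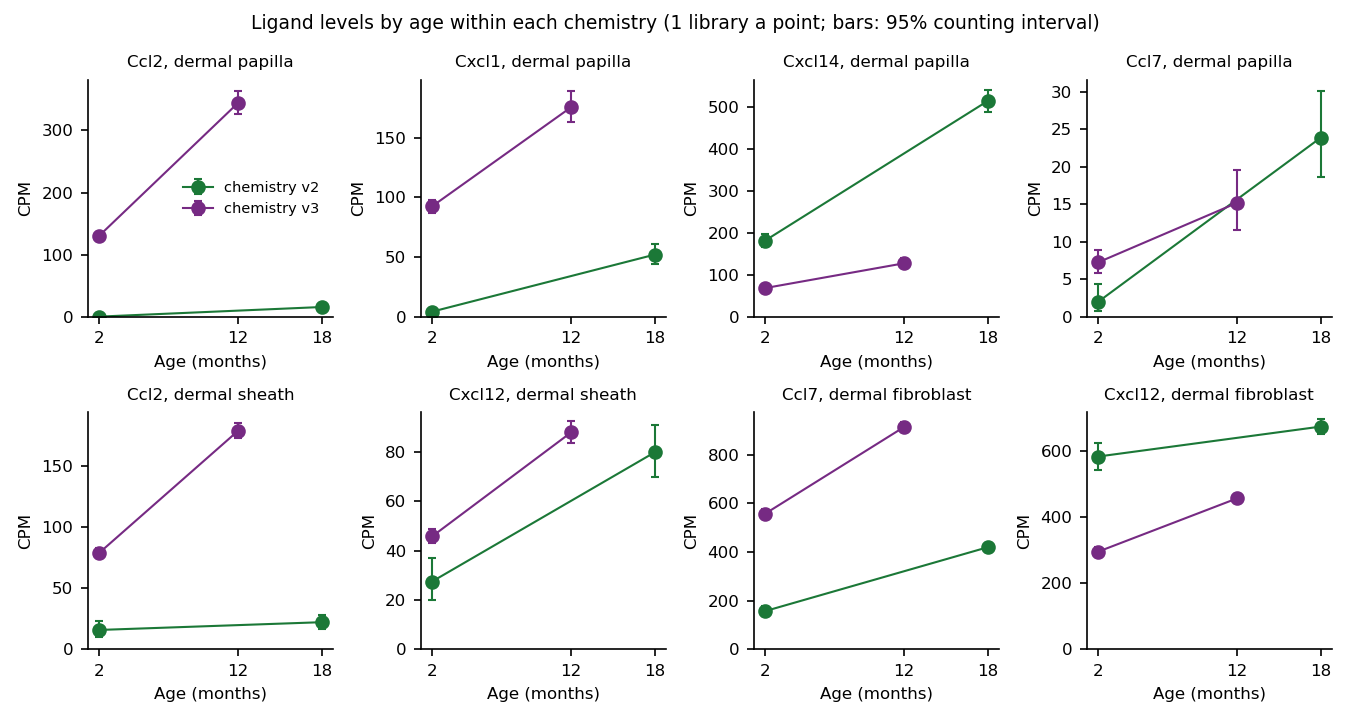
Level (CPM, from 0) against age in months for 8 pairs of ligand and class, 1 point per library with its 95% counting interval, and a line joining the libraries of each chemistry. All 8 pairs are higher in the older library of both chemistries, and of them Ccl2, Cxcl1, Cxcl14 and Ccl7 in papilla and Cxcl12 in sheath passed the test, while Ccl2 in sheath and Ccl7 and Cxcl12 in fibroblasts did not.

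Of 18 chemokine receptor genes, 9 were abundant enough for 19 tests, and 3 rose, all in dendritic cells. In that class 6 receptor genes were tested, and 4.27% of all genes passed. With the plain neighbour graph, chosen after seeing the data, no gene passed in dendritic cells, so these 3 calls were lost. Ccr7, the receptor for Ccl19 and Ccl21, stood at 153, 254, 588 and 812 CPM, and its edgeR log2 fold was 0.91 ± 0.18 (adjusted p = 0.020). Cxcr4, the Cxcl12 receptor, stood at 67.9, 121, 90.4 and 137 CPM (1.03 ± 0.22, edgeR adjusted p = 0.025). Ccr1, a receptor for Ccl6 and Ccl9, also rose (2.08 ± 0.50, edgeR adjusted p = 0.040). Of 5 atypical receptors, which take up chemokines without signalling migration, 1 of 15 tests rose, that of Ackr4 in fibroblasts (2.71 ± 0.36, edgeR adjusted p = 0.031), and Ackr4 removes Ccl19 and Ccl21. Ackr1, which carries chemokines across venules, stood at 67.9, 229 and 396 CPM in endothelial cells of the last 3 libraries, the first from 18 cells. Pf4, the Cxcl4 gene whose symbol falls outside the naming rule, stood at 2003, 3012, 4541 and 7388 CPM in macrophages. Of the 2 ligand genes outside the rule, Pf4 and Ppbp, 1 was abundant enough for 5 tests, and it rose in papilla. Pf4 was the leading gene of the macrophage cluster. The summed macrophage markers of papilla stood at 26.6, 69.9, 126 and 186 CPM, higher in the older library of each chemistry. Their part in this call was not tested.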

How the data were processed

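The deposited files are UMI counts per gene and called cell barcode, made by the authors with Cell Ranger 2.0.1 on mm10 (GRCm38.p5), per the submitters' processing notes, which also name STAR and Seurat 2.1.0. The headers of the version 3 files name a later software version. The cell numbers in the labels differ from the barcodes in the files.

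Cells with at least 500 genes, 1000 UMIs and under 10% mitochondrial UMIs were kept, and the 3% with the highest Scrublet scores were removed per library, since Scrublet's own calls (9, 10, 5 and 2 cells) were too few. Clustering used scanpy 1.11.5 on 2000 variable genes without the ligands, immediate-early, heat shock, ribosomal, mitochondrial and sex-linked genes, with 30 principal components, 5 neighbours per library and Leiden resolution 0.5. A class name needed at least 3 markers among a cluster's top 100 genes. Shares of cells were recomputed after thinning to 2000 UMIs, which left out 169 cells. Ratios carry exact conditional Poisson 95% intervals, and floors are 3 UMIs. Intervals and floors cover counting error only.

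UMIs summed per class were tested with edgeR 4.0.16 (glmQLFit and glmQLFTest, two-sided, TMM, filterByExpr) in classes of at least 50 cells in every library, at a Benjamini-Hochberg adjusted p of 0.05. The standard error of a log2 fold is its size over the square root of F. The procedure was tested on simulated data.

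Values are given for members with at least 100 CPM in a class in 2 libraries, members at least 2-fold the same way in both chemistries and members that passed edgeR. Not every receptor gene is reported here. Members were chosen by name, and the members, lists and tests were chosen with earlier results of these data known. The alternatives were DESeq2 1.42.0, RLE size factors, filters, clustering settings, 12 months counted as young and each library left out.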

Additional observations from a re-analysis of the deposited data

Results flagged for a closer look

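Macrophage ligands had opposite ratios of older to 2-month CPM in the 2 chemistries in 3 other classes, and the differences between chemistries were not tested. In fibroblasts, Ccl8 had a ratio of 4.41 in version 2 and 0.108 in version 3. Ccl4 had ratios of 2.33 and 0.048. Ccl3 was at least 2.67-fold higher at 18 months and had a ratio of 0.0449 at 12 months. The summed macrophage markers of the fibroblast class moved the same way, at 80.4, 212, 2232 and 157 CPM in the 4 libraries, and their part was not tested.

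In papilla, Ccl8 had a ratio of 23.7 in version 2 and 0.344 in version 3, where the summed macrophage markers stood at 26.6, 69.9, 126 and 186 CPM and so were higher in the older library of both chemistries. In keratinocytes, Ccl8 had ratios of 4.14 and 0.196 and Ccl7 of 5.83 and 0.324, beside macrophage markers of 7.67, 31.6, 147 and 36.8 CPM.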

How the results depend on the processing

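Calls of a member in a class numbered 16 as reported. They numbered 12 with RLE size factors, with DESeq2 and with a looser cell filter, and 11 at Leiden resolution 1. They were not always the same calls. Counting 12 months as young gave 4, leaving out the chemistry covariate 0, no filter on low counts 35 and a plain neighbour graph, in which 4 classes could be fitted, 8. Leaving out 1 library at a time, which also leaves out the chemistry covariate and assumes that a lone library varies like the others, gave 0 to 4, with 0 when the 12-month library was left out. Over all genes, 797 passed, against 144 with 12 months as young, 442 with DESeq2, 2548 with no filter and 255 with the plain graph. The counts past 2-fold were 52 in version 2 (44 to 58 over the alternatives) and 63 in version 3 (58 to 74). The class with the highest level was the same for at least 61 of 70 pairs of member and library in each alternative run for it. No alternative kept it for all 70.

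Some directions reversed. In dendritic cells of version 3, Ccl2 had log2 ratios of -0.74 with no doublet removal and -0.23 with the looser filter, and Cxcl10 of -0.27 and -0.041. An alternative chosen after seeing the data left out the Sfrp4 and C3 fibroblast cluster. In it fibroblast Cxcl1 reached 2.78 in version 3, and Cxcl2 reached 0.98 in version 2 and 3.24 in version 3. Their edgeR log2 folds were 1.29 and 3.06. Without cells holding a myeloid UMI, Cxcl2 stood at 0.51 in version 3. Leaving out 1 library at a time, edgeR log2 folds ran from -7.58 to 10.47 for dendritic Cxcl3, from -2.05 to 8.96 for papilla Ccl2 and from -3.03 to 5.54 for papilla Cxcl10, lowest without the 12-month library and highest without the 2-month version 3 library. Papilla Ccl2 and Cxcl14 passed in all 7 other fits with 4 libraries, the chemistry and 12 months as older. With 12 months counted as young, 0 of 18 papilla members tested passed. The causes were not tested.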
